A study of Mus musculus with 45 samples.

Results

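RNA-seq of untreated Dppa4 knockout (KO) mouse embryonic stem cells (mESCs) was compared with that of their wild-type (WT) counterparts, to describe which genes and repeat families depend on DPPA4 when the cells receive only solvent. The 6 libraries (3 KO and 3 WT) were those whose labels pair either genotype with DMSO, out of 45 libraries in the series. WT cells were of the line WTJ1, that is J1 mESCs, and KO cells were of the line DPPA4KO, in which the gene was disrupted with CRISPR/Cas9. Both lines came from the same laboratory. The labels number 3 replicates per group, and the methods give 3 clonal lines without saying whether this holds for each genotype. Every replicate received DMSO for 48 h in medium with serum and LIF on a layer of mitotically inactivated mouse embryonic fibroblast feeders. The same genotypes were also given UNC0638, an inhibitor of the histone methyltransferases EHMT1 and EHMT2, for 48 h (3 and 3 libraries). The labels do not say whether replicate numbers mark the same clone in both treatments. A difference other than the loss of Dppa4 that all clones of a line share cannot be told apart from that loss.

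DPPA4 is a small nuclear protein with a DNA-binding SAP domain, expressed in early embryos, mESCs and germ cells, where it acts together with its partner DPPA2. The pair is known to bind CpG-rich promoters and young LINE-1 elements, to keep promoters of developmental and germline genes free of DNA methylation, and to act upstream of Dux and of the genes of the 2-cell (2C) embryo. A small share of cells in mESC culture passes through a 2-cell-like state (2CLCs) in which Zscan4 genes and MERVL, an endogenous retrovirus, are transcribed. In bulk RNA such as this, fewer cells in a state and less RNA per cell cannot be told apart.

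Gene reads recovered from the deposited values ran from 8399885 to 12653792 per library over the 6 libraries, and mitochondrial transcripts took 2.24% to 2.59% of them. The markers that define mESCs were high in both genotypes, with Pou5f1 at 11089, 9569 and 12959.8 normalized counts (reads divided by the size factor of the library) in WT and 12326, 14662 and 15271 in KO. WT library 1 stood apart from the other WT libraries (r = 0.93 and 0.94 with them, against 0.96 between libraries 2 and 3, over log2 values of all tested genes). Fibroblast markers of the feeder layer were present in all 6 libraries and lower in KO. Their sum over 26 tested genes of 28 ran from 16486 to 22899 in WT and from 12559 to 14029 in KO. All 3 KO libraries lay below all 3 WT libraries for 18 of the 26 (16.1% of all tested genes), and 0 of the 26 were at 0 in either genotype. The part of feeder RNA in any result was not tested.

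Dppa4 (chromosome 16, 48283733 to 48294237, plus strand, mm10) was at 700.4, 868 and 920.5 normalized counts in the WT libraries and 0 in each KO library. With KO set to the limit that a count of 0 allows (3 reads over the 3 libraries), the transcript was at least 788-fold lower in KO (log2 fold change -9.69, SE 0.36, adjusted p = 8.92e-11). The 6 libraries thus matched their labels in Dppa4. A pair of processed pseudogenes followed the gene. Gm14058 on chromosome 2, which shares 99.4% of 532 bases with Dppa4, went from 389.8, 496 and 533 normalized counts to 0 in every KO library, and Gm5501 on chromosome 18 (96.8% over 532 bases) went from 57.0, 70.1 and 95.3 to 0. For reads with several matching places 1 of the best had been kept, at random among equals. By the settings in the methods spliced alignment was switched off, so reads across exon junctions could not be placed at Dppa4 itself. The reads of both pseudogenes cannot be separated from those of Dppa4.

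Dppa2, the partner gene that lies just downstream (chromosome 16, 48303908 to 48319723), was not lost with Dppa4. It was at 767, 855 and 804 in WT and 1008, 1214 and 1223 in KO, with all KO libraries above all WT libraries, and did not pass the test (log2 fold change 0.50, SE 0.16, adjusted p = 0.0688). Nectin3, an adhesion receptor upstream of Dppa4, was at 247, 326 and 271 against 152, 125 and 190.4 (log2 fold change -0.86, SE 0.22, adjusted p = 0.0271), a difference below the fold required for a call. Gm4737 (-0.26) and Morc1 (-0.24), the other tested genes among the 3 protein-coding neighbours on each side, were not called, while Cd96 and Gm5485 had too few reads to be tested. The genes for the methyltransferases that UNC0638 inhibits were not called, with Ehmt2 at a log2 fold change of -0.26 (adjusted p = 0.558) and Ehmt1 at -0.11 (adjusted p = 0.78).

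Loss of Dppa4 was accompanied by more falls than rises. Of 17258 genes tested, 535 fell (3.1%) and 230 rose (1.33%), so that 765 (4.43%) were called by limma at a Benjamini-Hochberg adjusted p under 0.05 and an absolute log2 fold change of at least 1. The fit held the 6 DMSO and the 6 UNC0638 libraries, which shared 1 estimate of the spread. Fold changes are differences of log2(normalized count + 1), KO minus WT, which understates the change of low genes. The median log2 fold change of all tested genes was -0.03. By non-overlap alone, 16.1% of all genes had every KO library below every WT library and 13.5% had every KO library above. A gene expressed only in WT passed the expression filter through WT, so shares of tested genes are descriptions. The number of calls depended on single libraries, with 280 without WT library 2, 427 without WT library 3 and 362 without KO library 1, against 901 without WT library 1.

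Some fallen genes went to zero. In all 3 KO libraries 55 genes with a WT mean of at least 20 normalized counts had no read, and 40 of the 55 were also without a read in all 3 KO libraries under UNC0638. In the opposite direction, with no read in any WT library and a KO mean of at least 20, there were 0 genes. To separate the 2C programme from other genes, the programme was taken from other libraries of the series, as the genes whose mean in sorted DMSO 2CLCs was at least 4 times that in DMSO mESCs (taken as at least 1) and at least 20 normalized counts, by the authors' group means. These sorted cells came from a different mESC line with a degradation tag on EHMT2, so the programme was not defined in J1 cells. Of the 535 fallen genes, 80 belonged to the programme and 455 lay outside it, as did 226 of the 230 risen genes. This split depends on the cut, since at 2 times in place of 4 times 137 fallen genes belonged to the programme and 398 lay outside.

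**Figure D1:**
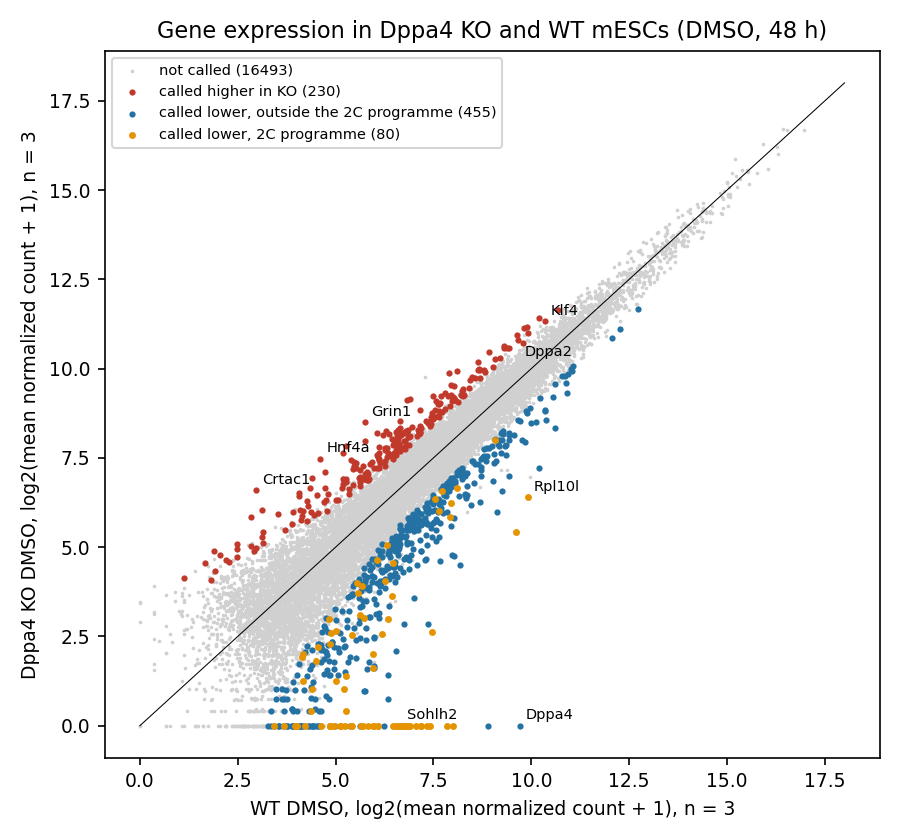
Mean normalized count of each of the 17258 tested genes in WT (x axis) and Dppa4 KO (y axis) mESCs in DMSO, both as log2(mean + 1) over 3 libraries, with the line of equality. Orange points are the 80 fallen genes of the 2C programme, blue points the 455 fallen genes outside it and red points the 230 risen genes. Fallen genes extend down to the zero line of KO, while no red point lies on the zero line of WT.

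Genes of the germline and of meiosis were among those that fell, most of them outside the 2C programme. Of 50 listed genes 36 were tested, 11 fell (all genes 3.1%) and 0 rose, with a median log2 fold change of -1.07 over the 36 against -0.03 over all genes. Sohlh2, a transcription factor of early oocytes and spermatogonia (chromosome 3, 55182028 to 55209957, plus strand), was at 145, 65.2 and 92.7 in WT and 0 in each KO library, at least 96.0-fold lower (log2 fold change -6.60, SE 0.60, adjusted p = 1.68e-05). Mov10l1, an RNA helicase of the piRNA pathway (chromosome 15, 88982909 to 89055152, plus strand), went from 17.5, 25.8 and 17.5 to 0 in every KO library, at least 19.2-fold lower (log2 fold change -4.39, SE 0.78, adjusted p = 0.00422). Ddx4, the germ cell helicase also known as Vasa (chromosome 13, 112598333 to 112652475, minus strand), went from 11.6, 19.7 and 18.4 to 0 in every KO library, at least 15.7-fold lower (log2 fold change -4.10, SE 0.79, adjusted p = 0.00671). In these 3 genes the lowest WT library was clearly above a KO group with no read at all.

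As the pair is known to bind CpG-rich promoters, the promoter windows of 3 of these germline genes and of Dazl, a germ cell RNA-binding protein that also fell, are printed to show their CpGs, from 250 bases before to 50 after the RefSeq start (GRCm38.p6), 5′ to 3′ on the strand of the gene, with each CpG in capitals. They hold 17, 20, 38 and 28 CpGs in 300 bases.
Sohlh2 (chr3:55181794-55182093, plus strand): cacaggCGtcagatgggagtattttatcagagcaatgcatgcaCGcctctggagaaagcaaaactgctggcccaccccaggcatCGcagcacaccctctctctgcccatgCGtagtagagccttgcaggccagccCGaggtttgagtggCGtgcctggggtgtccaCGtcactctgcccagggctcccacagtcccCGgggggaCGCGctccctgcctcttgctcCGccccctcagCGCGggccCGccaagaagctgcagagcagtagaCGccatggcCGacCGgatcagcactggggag
Mov10l1 (chr15:88982744-88983043, plus strand): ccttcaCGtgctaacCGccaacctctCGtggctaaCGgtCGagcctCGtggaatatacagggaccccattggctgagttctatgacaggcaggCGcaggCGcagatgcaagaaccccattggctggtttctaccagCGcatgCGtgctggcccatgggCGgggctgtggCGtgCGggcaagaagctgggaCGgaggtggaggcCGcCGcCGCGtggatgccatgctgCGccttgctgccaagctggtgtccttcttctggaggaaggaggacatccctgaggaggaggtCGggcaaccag
Ddx4 (chr13:112652261-112652560, minus strand): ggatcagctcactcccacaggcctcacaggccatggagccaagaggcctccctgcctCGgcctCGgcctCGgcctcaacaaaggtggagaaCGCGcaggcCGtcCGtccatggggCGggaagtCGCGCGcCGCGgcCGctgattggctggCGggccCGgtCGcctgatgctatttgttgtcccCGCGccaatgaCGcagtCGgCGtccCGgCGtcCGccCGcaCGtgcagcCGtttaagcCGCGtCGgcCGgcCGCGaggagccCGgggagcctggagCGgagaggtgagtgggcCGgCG
Dazl (chr17:50293571-50293870, minus strand): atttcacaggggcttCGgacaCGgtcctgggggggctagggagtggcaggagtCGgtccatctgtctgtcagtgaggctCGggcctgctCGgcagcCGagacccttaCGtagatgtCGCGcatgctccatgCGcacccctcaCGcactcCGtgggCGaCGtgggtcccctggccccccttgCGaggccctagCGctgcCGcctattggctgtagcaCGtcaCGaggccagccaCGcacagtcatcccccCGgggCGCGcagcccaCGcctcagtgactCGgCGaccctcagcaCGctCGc
The letters CACGTG, an E-box that reads the same on both strands and is bound by MGA and MAX among others, begin at base 5 of the Mov10l1 window and base 222 of the Ddx4 window. They occurred in the windows of 3 of the 11 fallen germline genes (Mael, Mov10l1 and Ddx4), in 32 of 290 windows of fallen protein-coding genes outside the 2C programme (11.0%) and in 1081 of 10690 windows of tested protein-coding genes (10.1%). The other motifs were searched on both strands too. The letters TCCCGC were in 4 of the 11 windows (36.4%) and in 36.5% of all, and the letters TATAAA in 18.2% and 6.98%. The printed windows are not typical, since the 11 germline windows had a median of 16 CpGs and the windows of fallen genes outside the programme also 16, below the median of 21 over all 10690. Only 77.5% of tested protein-coding genes had a window, under the 80% needed, so as a check of fallen against other genes these CpG and motif values are void and serve as description alone.

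The remaining germline genes fell from a range of WT levels. Dmrtb1, a DM-domain factor at the switch from mitosis to meiosis, went from 38.4, 67.7 and 51.6 to 2.94, 0 and 0 (log2 fold change -5.05, SE 0.90, adjusted p = 0.00425), and 3 KO reads give a WT to KO ratio of 49.8 with a counting interval of 16.7 to 244. Syce1, a component of the synaptonemal complex, went from 52.4, 36.9 and 67.3 to 2.94, 0 and 0 (log2 fold change -5.03, SE 0.68, adjusted p = 0.000677), with a ratio of 51.5 (interval 17.3 to 253) from 3 KO reads. These intervals are 95% and cover counting error only. For both genes KO library 1 held the only reads of the KO group. Mael, a piRNA pathway protein that is also in the 2C programme, went from 72.1, 24.6 and 86.5 to 0, 9.17 and 0 (log2 fold change -4.66, SE 0.86, adjusted p = 0.0055), and here KO library 2 held the only reads.

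The other 5 fallen members of the germline list were named after their values had been seen. Dazl (log2 fold change -3.65) and the synaptonemal complex gene Syce3 (-4.00) were low in WT, at 9.31, 9.84 and 16.6 and 14.0, 9.84 and 24.5 normalized counts, with no read in KO, and neither stayed called in every fit that left out 1 library. By contrast Rpl10l, a testis paralogue of a ribosomal protein, and Tex19.1, which restrains retrotransposons in germ cells, were abundant. Rpl10l was at 1024, 809 and 1034 in WT and 46.0, 71.3 and 135 in KO (log2 fold change -3.62, SE 0.34, adjusted p = 2.2e-05), and Tex19.1 was at 1090.2, 1515 and 2101 in WT and 212, 477 and 270.5 in KO (log2 fold change -2.32, SE 0.36, adjusted p = 0.00168). Its neighbour Tex19.2 fell from lower levels, 12.8, 29.5 and 43.7 to 1.96, 6.11 and 6.96 (-2.27), a call that depended on single libraries too. Rpl10l, Dazl, Mael and Tex19.2 belonged to the 2C programme and the other 7 fallen members did not. Germline genes without a call included Hsf2bp, which binds BRCA2 in meiosis (1013, 546 and 656 against 810.2, 944 and 636, log2 fold change 0.14), and the tubulin gene Tuba3a (0.85, adjusted p = 0.196).

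Among the 455 fallen genes outside the 2C programme, 402 were protein-coding (467 of 13787 protein-coding genes fell in all, 3.39%), 208 fell by at least 2 on the log2 scale and 38 had no read in KO. Their median log2 fold change was -1.85 and their median WT mean 95.3 normalized counts. The 12 lowest by the fixed rule (protein-coding, a WT mean of at least 20 and groups that did not overlap) included, beside Dppa4, Sohlh2, Dmrtb1 and Syce1, the following 8 genes. Cdcp1, a transmembrane protein that signals through Src kinases, went from 46.5, 109 and 42.8 to 0 in every KO library, at least 63.0-fold lower (log2 fold change -5.94, SE 0.71, adjusted p = 0.000344). Ticam2, an adaptor of Toll-like receptor 4, went from 41.9, 40.6 and 62.9 to 0 in every KO library, at least 46.0-fold lower (log2 fold change -5.60, SE 0.66, adjusted p = 0.000264). The latter shares 838 bases with Tmed7, which it overlaps on the same strand, so its value is uncertain.

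Hand1, a bHLH factor of trophoblast, heart and extraembryonic mesoderm, went from 17.5, 102 and 119 to 0, 2.04 and 0 (log2 fold change -5.40, SE 0.97, adjusted p = 0.00448). WT library 1 was well below the other WT libraries but above every KO library, and 2 KO reads give a ratio of 119 (interval 32.6 to 989). Rhox6, an X-linked homeobox gene of germ cells and placenta, went from 31.4, 36.9 and 53.3 to 0 in every KO library, at least 38.5-fold lower (log2 fold change -5.34, SE 0.73, adjusted p = 0.000677). Sntb1, a syntrophin of the dystrophin complex, went from 60.5, 82.4 and 42.0 to 0, 5.09 and 1.16 (log2 fold change -4.68, SE 0.85, adjusted p = 0.00489). Zfp869, a zinc finger gene, was high in all WT libraries and low in all KO libraries, at 157, 153 and 178 against 8.81, 4.08 and 5.80 (log2 fold change -4.55, SE 0.46, adjusted p = 4.53e-05). The X-linked gene models Gm18336 (-5.06, uncertain because of the near copy Gm6858) and 8030474K03Rik (-4.62) complete the 12. All 12 stayed called in each of the 6 fits that left out 1 library.

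**Figure D2:**
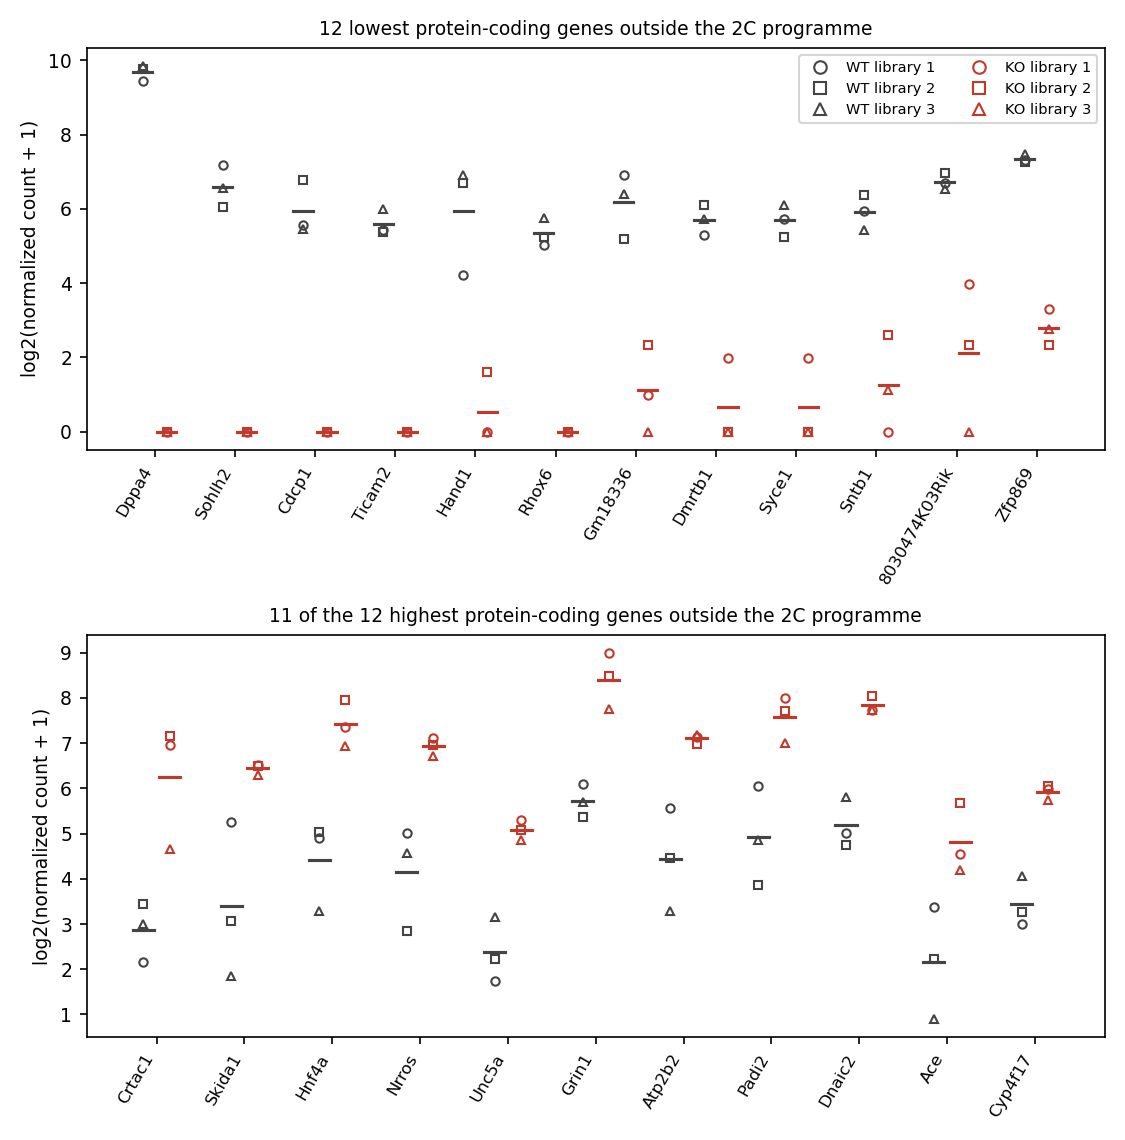
Normalized counts as log2(count + 1) in each of the 6 DMSO libraries for the 12 lowest and 11 of the 12 highest protein-coding genes outside the 2C programme, ordered by log2 fold change, with WT in grey, KO in red, one symbol per library number and a bar at the group mean. In the upper panel 5 genes (Dppa4, Sohlh2, Cdcp1, Ticam2 and Rhox6) have all KO libraries at 0. In the lower panel WT libraries scatter more than KO libraries for Skida1 and Atp2b2, among others.

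Several fallen genes belong to small gene families, which were picked after their values had been seen and support nothing by themselves. The share to set beside each count below is that of all tested genes, of which 3.1% fell. In the Rhox cluster, reproductive homeobox genes on X, 3 of 4 tested members fell, with Rhox5 at 32.6, 59.0 and 94.4 in WT and 1.96, 8.15 and 3.48 in KO (log2 fold change -3.54, SE 0.53, adjusted p = 0.00144) and Rhox9 at 15.1, 14.8 and 11.4 against 0 in every KO library. In the Fthl17 family, X-linked ferritin-like genes, 4 of 6 fell. Several members are near copies, with 99.3% of 842 bases shared by Fthl17b and Fthl17c, so their calls are not independent. Fthl17a, the member outside the 2C programme, went from 29.1, 13.5 and 19.2 to 0 in every KO library, at least 19.6-fold lower. The DM-domain genes Dmrtc1c1 (-3.77) and Dmrtc1c2 (-4.36) fell to no read as well, but their annotated transcripts are identical over 1611 bases and their reads cannot be told apart. Among serine proteases 4 of 11 fell, with Prss42 and Prss44, which lie close together on chromosome 9, at log2 fold changes of -3.53 and -4.23, calls that did not hold in every fit that left out 1 library. For the MHC class I genes 2 of 8 fell, H2-Q7 (-4.40, near copies in the H2-Q group) and H2-K1 (-1.09), of which H2-Q7 alone stayed called in all of those fits.

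Lineage genes outside the germline also held calls. Of 22 trophoblast genes 16 were tested, 4 fell (25%, all genes 3.1%) and 0 rose, with a median of -1.75. They were Hand1, Rhox6 and Rhox9, described above, and Ly6a, a surface antigen that fibroblasts also carry, at 72.1, 94.7 and 96.2 in WT and 12.7, 44.8 and 34.8 in KO (log2 fold change -1.64, SE 0.44, adjusted p = 0.0354). The call of Ly6a was lost without WT library 2, WT library 3 or KO library 1, and that of Rhox9 without WT library 2. The keratin gene Krt8 was at 192, 863 and 728 against 98.8, 202 and 124 and did not pass the test (log2 fold change -1.86, adjusted p = 0.133), nor did the imprinted placental gene Peg10 (-0.82, adjusted p = 0.0514). Only 22 of 50 developmental regulators known to carry bivalent promoters had enough reads. Of these 3 fell (13.6%, all genes 3.1%) and 0 rose, with a median of -0.62. Hand1 was 1 of them. Wt1, a zinc finger factor of gonad and kidney, went from 3.49, 64.0 and 45.5 to 0, 1.02 and 0 (log2 fold change -4.24, SE 1.05, adjusted p = 0.0254), where 1 KO read gives a ratio of 109 (interval 19.1 to 4339). The WT level of Wt1 rested on libraries 2 and 3, and without either of them, or without KO library 1 or 3, the call was lost. Sox1 (151, 55.4 and 62.1 against 165, 209 and 123, adjusted p = 0.0966) and Eomes (adjusted p = 0.74) were not called.

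Genes of formative and primed pluripotency, which cells switch on as they leave the naive state, gave 4 falls (18.2%, all genes 3.1%) and 0 rises among 22, with a median of -0.21. Dnmt3b, a de novo DNA methyltransferase, was at 1415, 2261 and 1861 in WT and 564, 941 and 1158 in KO (log2 fold change -1.09, SE 0.28, adjusted p = 0.0287). Lefty1, a Nodal antagonist, was at 1154, 2494 and 2169 against 1118, 473 and 320.4 (log2 fold change -1.73, SE 0.44, adjusted p = 0.0291), and its KO library 1 lay close to WT library 1. Fgf15, a growth factor, was at 112, 138 and 152 against 55.8, 56.0 and 23.2 (log2 fold change -1.64, SE 0.40, adjusted p = 0.023), and Sox3, which is also in the 2C programme, was at 68.6, 87.3 and 72.6 against 15.7, 15.3 and 16.3 (log2 fold change -2.20, SE 0.59, adjusted p = 0.0349). Nodal (0.28) and Etv5 (0.15) were not called. These 4 calls were fragile. Sox3 was lost whichever library was left out, and the other 3 were each lost without WT library 2 and without WT library 3.

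Among 25 naive and general pluripotency genes 3 rose (all genes 1.33%) and 1 fell (4%, near the 3.1% of all genes), with a median of 0.33. Klf4, a factor of the naive network, was at 1617, 1099.6 and 1165 in WT and 2639, 2700.1 and 2359 in KO (log2 fold change 1.01, SE 0.16, adjusted p = 0.0025). Tbx3, a T-box factor of the same network, was at 2058, 727 and 698 against 3065, 2689.9 and 2472 (log2 fold change 1.43, SE 0.35, adjusted p = 0.0244), and Tcl1, a co-activator of AKT, was at 1488, 683 and 649 against 2785, 2354 and 1709 (log2 fold change 1.36, SE 0.28, adjusted p = 0.00917). For these 3 genes WT library 1 lay nearest to the KO libraries. Without WT library 2 or without KO library 1 none of the 3 was called. For Klf4 the fold alone slipped under the cut, to 0.90 at the lowest. Its limma adjusted p was at most 0.0195 in all fits without 1 library. Dppa3, a maternal factor that guards methylation and is in the 2C programme here, was the member that fell, from 38.4, 83.6 and 401 to 4.89, 7.13 and 3.48 (log2 fold change -4.20, SE 0.80, adjusted p = 0.00667). It shares sequence with the pseudogene Dppa3-ps. The core factor genes Pou5f1 (log2 fold change 0.33, adjusted p = 0.282) and Esrrb (0.53) stayed under the fold required.

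Of the 30 imprinted genes tested 2 fell (6.67%, all genes 3.1%) and 0 rose, with a median of -0.34. Igf2, a fetal growth factor, was at 61.7, 157 and 245 in WT and 30.3, 23.4 and 18.6 in KO (log2 fold change -2.45, SE 0.56, adjusted p = 0.0164), and shares 3598 bases with the overlapping model Gm49394. Dlk1, a Notch ligand relative, was at 62.8, 81.2 and 139 against 20.5, 15.3 and 15.1 (log2 fold change -2.34, SE 0.47, adjusted p = 0.00822) and stayed called without any 1 library, while Igf2 was lost without WT library 2 or WT library 3. Grb10, a growth inhibitor, was at 4239.8, 3129 and 4329.5 against 1641, 2283 and 2527 (-0.87, adjusted p = 0.0144), below the fold for a call. Fibroblast feeders also express Igf2 and Dlk1, and the summed feeder markers were lower in KO as given above, whose part in both falls was not tested.

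The feeder list itself had 6 fallen (23.1%, all genes 3.1%) and 0 risen genes among 26, with a median of -0.98. Acta2, smooth muscle actin, was at 529, 1220.2 and 834 in WT and 179, 287 and 297 in KO (log2 fold change -1.71, SE 0.35, adjusted p = 0.0103). Tagln (-1.49), Twist2 (-1.80), Prrx1 (-1.28), Timp3 (-1.19) and Ccn2 (-1.01) fell as well, whereas Fn1 (-0.04) and Vim (-0.09) were not called. All 6 calls were lost without WT library 2 and again without KO library 1. Lum and Dcn, the other listed markers, had too few reads to be tested.

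Among abundant fallen genes outside the 2C programme that stayed called in all 6 fits without 1 library, chosen after their values had been seen, were several of general function. Cnbp, a nucleic acid binding protein, was at 4728, 5578 and 4414 in WT and 1799, 2128 and 2736 in KO (log2 fold change -1.16, SE 0.19, adjusted p = 0.0025). Nefh, the heavy neurofilament chain, was at 819, 1064 and 872 against 168, 289 and 281 (log2 fold change -1.93, SE 0.26, adjusted p = 0.000677), and Acer2, a Golgi ceramidase, was at 535, 683 and 596 against 57.7, 38.7 and 188 (log2 fold change -2.99, SE 0.47, adjusted p = 0.002). Every KO library lay well below every WT library for these genes. Atxn1l, a partner of the repressor CIC, was at 591, 627 and 449 against 69.5, 45.9 and 72.0 (log2 fold change -3.15, SE 0.29, adjusted p = 1.68e-05). Cd24a, a surface glycoprotein of epithelial and stem cells, was at 403, 688 and 454 against 90.0, 131 and 124 (log2 fold change -2.13, SE 0.32, adjusted p = 0.0013), and Ccnd2, a D-type cyclin, was at 774, 1322 and 950.2 against 234, 369 and 463 (log2 fold change -1.53, SE 0.26, adjusted p = 0.00337). Cav1, the caveolin of fibroblasts and other cells, was at 677, 804 and 443 against 199.6, 232 and 245 (-1.47), a gene that feeder cells express strongly.

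The lists of chromatin regulators held 1 called gene each. Of 11 genes of DNA methylation only Dnmt3b fell (9.09%, all genes 3.1%), and the list had a median of 0.16. Tet1, a demethylating dioxygenase, was at 3854, 3595 and 3865 against 6080.1, 3805 and 6162 and Trim28, a corepressor of retrotransposons, at 8058, 7624 and 8701 against 8155, 10655 and 8555, neither of them called. Of 27 genes of the PRC1.6 complex and of H3K9 methylation, which silence germline genes in mESCs, 1 fell (3.70%, close to 3.1% of all genes) and the median was -0.11. It was Yaf2, a subunit of Polycomb complexes, at 69.8, 80.0 and 90.0 in WT and 27.4, 31.6 and 22.1 in KO (log2 fold change -1.54, SE 0.35, adjusted p = 0.0158), a call lost without WT library 2, WT library 3 or KO library 1. Tfdp1, the dimerization partner of E2F factors (-0.75, adjusted p = 0.0146) was lower by less than the fold for a call, and the PRC1.6 subunit gene L3mbtl2 was at a log2 fold change of -0.06.

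Lists for other cell states held at most 2 calls each, but they were short, and of all genes 3.1% fell and 1.33% rose. Among 24 p53 targets 1 rose (all genes 1.33%), the apoptosis gene Pmaip1 (184, 251 and 196 against 556, 347 and 409, log2 fold change 1.04, adjusted p = 0.0253). Its call was lost without any 1 of 4 of the 6 libraries, while Cdkn1a (0.28) and Zmat3 (0.32) were not called. Among 19 immediate early genes Ier5 (-1.36) and Ccn1 (-1.10) fell (10.5%, all genes 3.1%), and the median was -0.15. The call of Ccn1, also a gene of fibroblasts, was lost without WT library 2, KO library 1 or KO library 2. For 20 glycolysis genes 0 were called by limma, with a median of 0.29, as with the lactate dehydrogenase gene Ldha (0.28, adjusted p = 0.421) and the glucose transporter gene Slc2a3 (0.76, adjusted p = 0.055). Of 13 tested primitive endoderm genes 1 rose (all genes 1.33%), Hnf4a, and the median was -0.43.

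**Figure D3:**
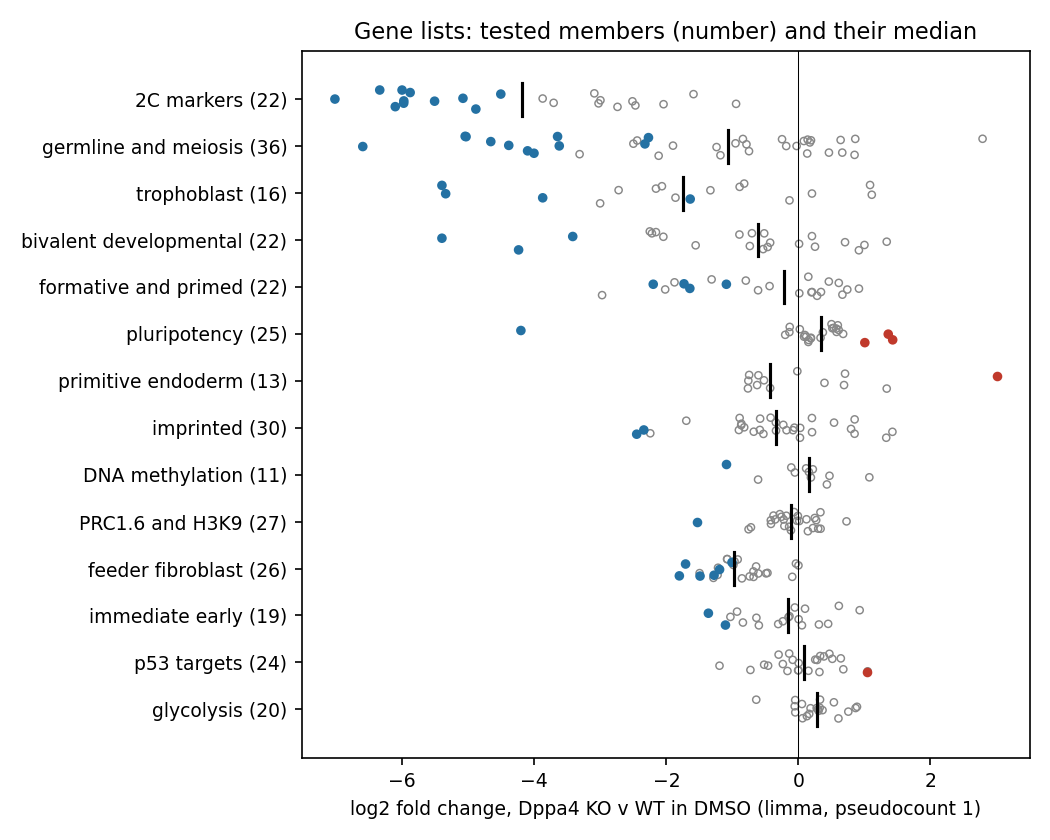
Log2 fold change of KO against WT in DMSO for every tested member of 14 gene lists, with filled blue points for fallen and filled red points for risen genes, open points for genes not called, and a black bar at the list median. The 2C marker, trophoblast and germline lists have the lowest medians (-4.19, -1.75 and -1.07), and pluripotency the highest (0.33).

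Risen genes were fewer and their changes smaller. Outside the 2C programme 226 rose (1.36% of 16619 tested there), 200 of them protein-coding (203 of 13787 in all, 1.47%), with a median log2 fold change of 1.40, and 37 rose by at least 2. The count of all risen genes was 91 without WT library 2, 148 without WT library 3, 87 without KO library 1 and 114 without KO library 2. Grin1, the obligate subunit of NMDA receptors, was at 67.5, 40.6 and 50.7 in WT and 508, 358 and 214 in KO (log2 fold change 2.68, SE 0.36, adjusted p = 0.000667), although its antisense gene Grin1os overlaps it and the strand used in counting is not known. Atp2b2, a plasma membrane calcium pump, was at 46.5, 20.9 and 8.74 against 139.9, 126 and 145 (log2 fold change 2.67, SE 0.51, adjusted p = 0.00645). Hnf4a, a nuclear receptor of liver and visceral endoderm, was at 29.1, 32.0 and 8.74 against 163, 248 and 121 (log2 fold change 3.00, SE 0.51, adjusted p = 0.0034). In these 3 genes every KO library lay above every WT library.

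Dnaic2, an axonemal dynein chain of motile cilia, was at 31.4, 25.8 and 55.1 in WT and 210.4, 265 and 211 in KO (log2 fold change 2.64, SE 0.44, adjusted p = 0.00307). Padi2, an enzyme that converts arginine to citrulline in histones and other proteins, was at 65.2, 13.5 and 28.0 against 254, 209.9 and 128 (log2 fold change 2.65, SE 0.49, adjusted p = 0.00531). Nrros, a regulator of oxidants and of TGF-beta in myeloid cells, was at 31.4, 6.15 and 22.7 against 138, 124 and 104 (log2 fold change 2.79, SE 0.48, adjusted p = 0.00348). Cyp4f17, a cytochrome P450, was at 6.98, 8.61 and 15.7 against 62.6, 65.2 and 52.2 (log2 fold change 2.48). Of the 12 highest 8 stayed called without any 1 library, these 7 among them, and the other 4 did not. Crtac1, a matrix protein of cartilage, was at 3.49, 9.84 and 6.99 against 123, 142 and 24.4 (log2 fold change 3.39) and was lost without KO library 1 or 2. Skida1, at 37.2, 7.38 and 2.62 against 91.0, 89.7 and 77.8 (3.05), was lost without WT library 2 or 3 or KO library 1 or 2. The netrin receptor gene Unc5a, at 2.33, 3.69 and 7.87 against 38.2, 32.6 and 27.9, was lost without WT library 2 or KO library 1 or 2, and Ace, angiotensin converting enzyme (2.64), without WT library 2 or 3 or KO library 2.

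Risen genes of high level that stayed called in all 6 fits without 1 library, chosen after their values had been seen, had smaller folds. Foxo3, a forkhead factor held back by insulin signalling, was at 1291, 769.99 and 618 in WT and 2536, 2279 and 1992 in KO (log2 fold change 1.41, SE 0.26, adjusted p = 0.00531). Ndrg1, a gene induced by hypoxia and differentiation, was at 435, 461 and 555 against 1205, 1793 and 1247 (log2 fold change 1.53, SE 0.19, adjusted p = 0.000361), and Bmf, a BH3-only apoptosis gene, was at 525, 357 and 314 against 1255, 1169.7 and 1096 (log2 fold change 1.59, SE 0.20, adjusted p = 0.000448). WT values were tight for Ndrg1, and for Foxo3 WT library 1 lay nearest to KO. Pramef12, of a family expressed in germ cells and early embryos, was at 1123, 619 and 688 against 1739.7, 1905 and 1741 (log2 fold change 1.20, SE 0.20, adjusted p = 0.00307).

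Because of Grin1 and Atp2b2, ion channels and transporters of neurons were listed after the values had been seen. Of 63 tested, 7 rose (all genes 1.33%) and 4 fell (6.35%, all genes 3.1%), with a median of 0.19. The potassium channel gene Kcnk1 fell, from 127, 333 and 318 to 12.7, 29.5 and 36.0 (log2 fold change -3.26, SE 0.44, adjusted p = 0.000677), as did Kcnj3 (-3.42). The ion channel list thus held called genes of both directions.

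Within the 2C programme 80 of 639 tested genes fell (12.5%, all genes 3.1%) and 4 rose (0.626%, all genes 1.33%). Of the 639, 459 had a negative log2 fold change, with a median of -0.71. The median over the 80 was -3.99, and 40 of them had no read in KO. Of 22 tested 2C marker genes 11 fell (50%, all genes 3.1%). The median over the 22 was -4.19, or -5.29 when genes without a KO read are put at their bound. Zscan4c, a zinc finger gene bound up with telomere maintenance and the 2C state, was at 31.4, 107 and 622 in WT and 0 in each KO library, at least 241-fold lower (log2 fold change -7.02, SE 0.92, adjusted p = 0.000606). Usp17lb, a deubiquitinase gene of a tandem family, went from 30.3, 77.5 and 216 to 0 in every KO library, at least 102-fold lower (log2 fold change -6.34, SE 0.73, adjusted p = 0.000251). Among the WT libraries library 3 was highest and library 1 lowest for both genes, and the summed 2C markers spanned 195 to 3172 in WT against 0 to 5.80 in KO.

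The other lowest members were of the same kind. Gm4340 went from 44.2, 94.7 and 546 to 0 in every KO library (at least 217-fold lower) and Gm21293 from 17.5, 92.3 and 396 to 0 (at least 160.1-fold lower), both from a cluster of near-identical genes on chromosome 10. Zscan4-ps2 (-6.52), Zscan4e (-6.11), Zscan4d (-6.00), Zscan4a (-5.98) and Zscan4f (-5.98) had no KO read either. Taken singly these genes are uncertain, since the copies share over 95% of their sequence and reads matching several equally well were placed at random. Fthl17c went from 107, 61.5 and 264 to 0 in every KO library, at least 137-fold lower (log2 fold change -6.92, SE 0.61, adjusted p = 1.48e-05), and its WT spread was smaller than that of Zscan4c. It is uncertain as a single gene too, since it shares 99.3% of 842 bases with Fthl17b. Usp17la (0, 35.7 and 84.8 against no read, adjusted p = 0.0755) and Gm5662 (adjusted p = 0.0918) were not called by limma, each with no read in WT library 1, while edgeR (adjusted p = 0.0344) and DESeq2 (0.028) called Usp17la. Without WT library 1 both passed the test, and the count of fallen 2C genes was 102. Without WT library 2, WT library 3 or KO library 1 it was 41, 40 or 48.

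The promoter windows of Fthl17c and Zscan4c, the lowest of their families by values that near copies make uncertain, are given in the notation used above. They hold 8 and 4 CpGs in 300 bases. Over 42 windows of fallen protein-coding 2C genes (64.6% of 65) the median was 11.
Fthl17c (chrX:8976510-8976809, minus strand): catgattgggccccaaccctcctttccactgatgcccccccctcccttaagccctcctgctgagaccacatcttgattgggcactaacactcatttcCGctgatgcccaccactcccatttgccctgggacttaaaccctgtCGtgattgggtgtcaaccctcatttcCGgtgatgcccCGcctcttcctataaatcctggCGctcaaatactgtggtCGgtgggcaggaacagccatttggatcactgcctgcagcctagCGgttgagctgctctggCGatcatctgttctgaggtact
Zscan4c (chr7:11005495-11005794, plus strand): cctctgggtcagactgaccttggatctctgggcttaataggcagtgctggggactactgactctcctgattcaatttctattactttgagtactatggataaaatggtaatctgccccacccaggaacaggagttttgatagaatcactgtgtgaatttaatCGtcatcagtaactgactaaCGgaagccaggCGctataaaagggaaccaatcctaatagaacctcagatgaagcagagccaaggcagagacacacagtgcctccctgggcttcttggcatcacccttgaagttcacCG
The risen members of the programme by the fixed rule were Slc4a5, a bicarbonate transporter (4.65, 9.84 and 6.12 against 34.2, 32.6 and 24.4, log2 fold change 2.04), Epm2a, a glycogen phosphatase (12.8, 20.9 and 73.4 against 116, 112 and 94.0, log2 fold change 1.94), and Pdzd2, a PDZ protein (86.1, 114 and 76.9 against 398, 248 and 245, log2 fold change 1.65). Each of the 3 calls was lost without WT library 1 and in 4 or 5 of the 6 fits that left out 1 library.

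Repeat families gave 5 calls among 782 tested (0.639%), 3 lower (0.384%) and 2 higher (0.256%), with a median of 0.03 over all families. MERVL-int, the internal part of the retrovirus that marks 2CLCs, was at 2199, 4355 and 12607 in WT and 952, 644 and 1006 in KO (log2 fold change -2.54, SE 0.53, adjusted p = 0.0176). Its terminal repeat MT2_Mm was at 375, 632 and 1674 against 217, 174 and 301 and did not pass the test (log2 fold change -1.70, SE 0.47, adjusted p = 0.124), although no KO library reached the lowest WT library in either family. WT library 3 was the highest for both. Unlike the Zscan4 genes, MERVL-int kept at least 644 normalized counts in every KO library.

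Of 6 young LINE-1 families, which still hold copies able to move, 2 fell (33.3%, all families 0.384%) and the median was -1.08. L1Md_Gf was at 211, 339 and 274 in WT and 37.2, 27.5 and 92.9 in KO (log2 fold change -2.53, SE 0.43, adjusted p = 0.00471), and L1Md_T was at 5751, 10851 and 10225 against 2306, 1626 and 4781 (log2 fold change -1.72, SE 0.36, adjusted p = 0.0176). For both families the groups did not overlap (5.12% of all families had every KO library below every WT library). L1Md_A was at 5691, 11011 and 10643 against 4178, 1266 and 8588, with groups that overlapped, and was not called (-1.29, adjusted p = 0.382). Both risen families were parts of RLTR1B, an endogenous retrovirus of the ERV1 class. Its internal part RLTR1B-int was at 5779, 4709.7 and 7438 in WT and 13751, 14669 and 15772 in KO (log2 fold change 1.32, SE 0.27, adjusted p = 0.0176), and its terminal repeat RLTR1B was at 337, 230.01 and 458 against 734, 916 and 929 (log2 fold change 1.38, SE 0.29, adjusted p = 0.0176). In both the groups did not overlap (5.88% of all families had every KO library above every WT library). IAPEz-int, the most abundant IAP family, was at 0.28 (adjusted p = 0.992), and 0 of 13 IAP and ETn families and 0 of 2 satellites were called by limma. These repeat calls were sensitive to the test and to single libraries. With edgeR MERVL-int (adjusted p = 0.0508), L1Md_T (0.0508) and RLTR1B (0.163) were not called, and with the 6 DMSO libraries alone limma did not call L1Md_T (0.0505). Without WT library 2 or without KO library 2 0 families were called, and without KO library 1 there was 1, L1Md_Gf. Counts per family pool many copies, and reads matching several of them equally well were placed at random.

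**Figure D4:**
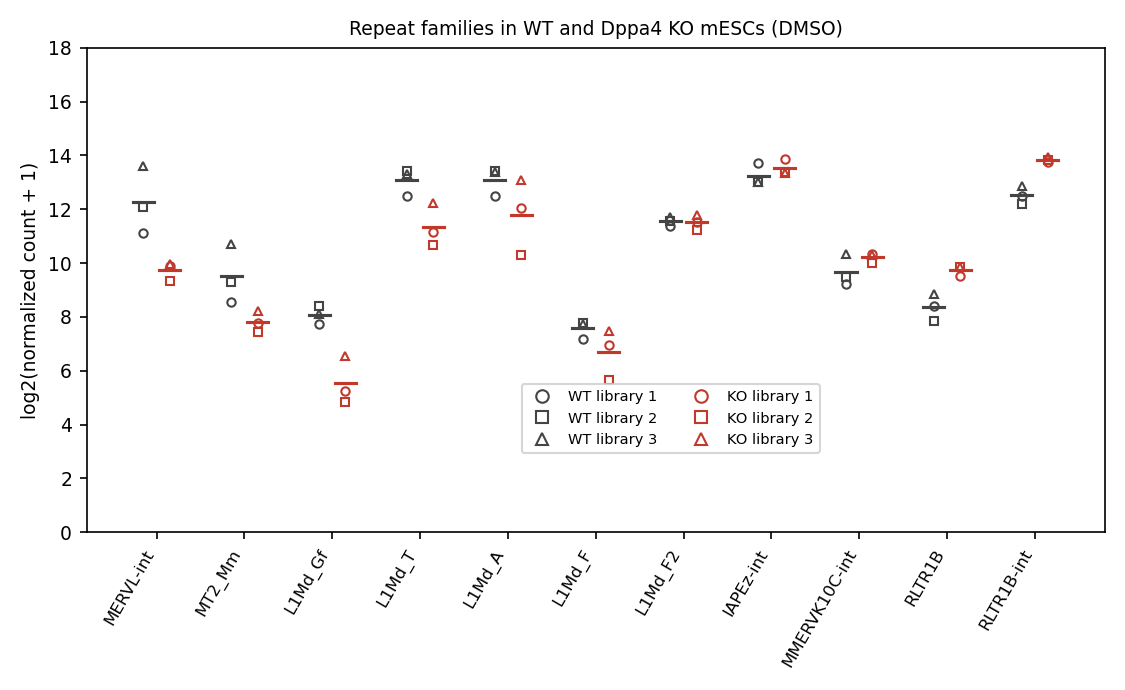
Normalized counts as log2(count + 1) of 11 repeat families in each DMSO library, with WT in grey, KO in red, one symbol per library number and a bar at the group mean. MERVL-int, L1Md_Gf and L1Md_T lie lower in all KO libraries, RLTR1B and RLTR1B-int higher, and L1Md_A, L1Md_F2 and IAPEz-int overlap between the groups.

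Some fallen genes were neighbours along the chromosome. Of the 80 fallen 2C genes 32 (40.0%) had a fallen gene as the next tested gene on at least 1 side, as had 68 of the 455 outside the programme (14.9%) and 5.96% of all tested genes. However, 6 of the 80 and 79 of the 455 overlapped another tested gene, so neighbouring calls are not all independent. Runs of at least 3 adjacent fallen genes numbered 5. The longest were the 9 Zscan4 genes (chromosome 7, 10794242 to 11614112) and 7 genes from Gm21293 to Gm4340 (chromosome 10, 104142987 to 104196522). Both runs hold near copies whose shared reads were placed at random, so calls within them are not independent, and they enter the 40.0%. A run of 4 without any 2C gene lay on chromosome 6 (48593883 to 48633689) and held the zinc finger genes Repin1 and Zfp775 with Gm38804 and AI854703. Repin1 was at 239, 294 and 246 in WT and 76.3, 63.2 and 26.7 in KO, and Zfp775 at 186, 237 and 330.4 against 38.2, 18.3 and 23.2 (log2 fold change -3.22, SE 0.42, adjusted p = 0.000606). Both were low in every KO library, and under UNC0638 both fell as well (-3.31 and -2.93). Gm38804 overlaps Zfp775 on the opposite strand, so reads of that pair cannot be told apart. Rhox5, Rhox6 and Rhox9 formed the run on X, and 2610044O15Rik8, Gm21399 and Gm32856 the run on chromosome 8. These regions were named after their values had been seen.

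The X chromosome held 44 fallen (7.27%, all genes 3.1%) and 6 risen genes (0.992%, all genes 1.33%) of 605 tested, 13 of the 44 in the 2C programme. Over its 279 genes with a mean of at least 100 normalized counts the median log2 fold change was -0.13, against -0.04 to 0.09 on the autosomes. Per KO library this X median was -0.11, -0.15 and -0.07. On Y, where 5 genes were tested, Eif2s3y, a translation initiation factor gene of the 2C programme, was the single fallen gene, at 24.4, 19.7 and 23.6 in WT and 10.8, 0 and 0 in KO. Its call did not hold in every fit that left out 1 library.

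The same genotypes under UNC0638 formed 6 further libraries. They entered the DMSO comparison through the shared spread and through the expression filter, which was run over all 12 libraries. Same-numbered WT libraries deviated together across treatments (r = 0.25, 0.10 and 0.43 over genes) and KO libraries did not in every case (0.15, -0.09 and 0.01), so the WT libraries of both treatments may not be independent. Of 17258 genes 399 fell (2.31%) and 168 rose (0.973%) in KO against WT with UNC0638. All 80 fallen 2C genes had the same sign there and 57 were called, with a median of -4.30. Outside the programme 434 of the 455 fallen genes had the same sign and 154 were called, with a median of -1.19. For the 226 risen genes 220 had the same sign and 74 were called, with a median of 0.92. The difference between both KO against WT effects was tested for every gene, and 0 were called by limma, edgeR or DESeq2, with 1076 at an unadjusted p under 0.05.

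Among genes described above, picked for their UNC0638 values, some fell with both treatments. Sohlh2 under UNC0638 was at 194, 128 and 137 in WT and 1.84, 11.8 and 1.75 in KO (log2 fold change -5.03, adjusted p = 0.000188), with a few reads in every KO library, against none in DMSO. Cdcp1 was at 25.5, 109 and 78.2 against 1.84, 0 and 1.75 (-4.95), and Syce1 at 61.6, 54.2 and 99.8 against 0 in every KO library (-6.14). By contrast the risen gene Unc5a was at 21.1, 4.67 and 15.2 in WT and 16.6, 11.8 and 12.2 in KO (0.18, adjusted p = 0.901), and Cyp4f17 at 42.3, 47.7 and 23.2 against 62.5, 43.0 and 57.6 (0.56). Prss42 was at 44.9, 30.8 and 76.6 in WT and 91.1, 169 and 30.6 in KO (0.71), with values that overlapped. That these genes differ between treatments was not shown, since 0 genes passed the test of the difference. Among repeats, MERVL-int (-4.53), L1Md_Gf (-3.12) and L1Md_T (-2.30) fell again and RLTR1B (1.47) rose, while RLTR1B-int (0.96, adjusted p = 0.0932) was not called.

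**Figure D5:**
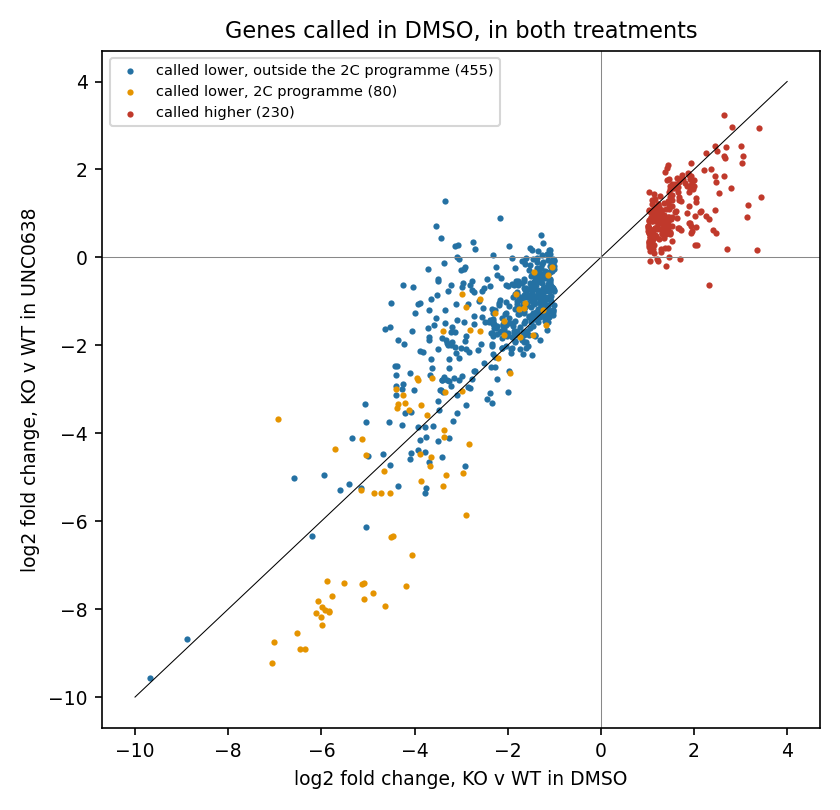
Log2 fold change of KO against WT with UNC0638 (y axis) for the genes called in DMSO (x axis), with the line of equality, in orange for 80 fallen 2C genes, blue for 455 fallen genes outside the programme and red for 230 risen genes. Most points share the sign of both axes, and many blue points lie nearer to zero with UNC0638 than in DMSO, the treatment in which they were chosen.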

How the data were processed

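Poly(A) RNA-seq libraries of WT J1 and Dppa4 KO mESCs (6 in DMSO and 6 in UNC0638) were compared. According to the methods and the submitters' processing notes, reads were trimmed with Trim Galore (0.6.7) and aligned to mm10 with STAR (2.7.10). For reads with several places 1 of the best was kept, at random among equals, and spliced alignment was switched off. Reads were counted over GENCODE vM25 genes and over repeat families. The strand option used in counting is not given in the sources used here, so overlapping and antisense genes are uncertain. The deposited signal values are counts that the authors divided by DESeq2 (1.34.0) size factors, per library, with group means for the sorted cells. Columns of the authors' own comparisons were not used.

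Whole reads came out for 100% of values (tolerance 0.001 reads), and depth is the sum of these reads. Genes and repeat families passing filterByExpr of edgeR on these reads (17258 of 55401 genes and 782 of 1146 families) were tested with limma (3.58.1, R 4.3.3) on log2(value + 1), in a model of 4 groups over 12 libraries, with Benjamini-Hochberg adjustment. Calls needed an adjusted p under 0.05 and an absolute log2 fold change of at least 1. The p-values measure the spread between replicates, which are clones if the clonal lines of the methods hold for each genotype. Count tests on the recovered reads were alternatives, with edgeR (4.0.16) calling 658 genes, 638 of them shared with limma, and DESeq2 (1.42.0) calling 1075, of which 741 were shared. Counts were also simulated with the same dispersion of 0.1 for every gene and 200 genes of mean at least 20 changed 4-fold among 17258. There limma called 86.5% of the changed genes in KO against WT in DMSO, with 3 false calls. The spread of the real libraries was not modelled, so these figures are not error rates of these data.

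No library pair agreed within sampling noise (lowest chi-square per degree of freedom 11.2). Coordinates are mm10 from GENCODE vM21, which lacked 18 tested genes, promoter windows are from RefSeq (GRCm38.p6), and near copies are matches of at least 95% over at least 150 bases by blastn (2.17.0). Members and lists were chosen with earlier results of these data known. The genes named were Dppa4, its neighbours, Ehmt1 and Ehmt2, the 12 lowest and 12 highest called protein-coding genes outside the 2C programme with a mean of at least 20 in the higher group and groups that did not overlap, the 6 lowest and 6 highest within it, up to 6 called and 2 uncalled members of each list, and the called repeat families with 5 fixed ones. Others are said to be chosen after their values were seen. A few genes that the rule names are not reported here.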

Additional observations from a re-analysis of the deposited data

How the results depend on the processing

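Of 1666 alternative values over 105 named genes and repeat families, 0 called values changed sign, 1493 kept their side of the threshold, 156 lost their call and 17 gained one. The sign of 6 uncalled values changed, in Eomes, Etv5, Fn1, Hsf2bp, L3mbtl2 and Vim, and 63 of the 105 kept their side under every alternative. Leaving out 1 library in turn gave 280 to 901 called genes in DMSO (765 with all), 40 to 102 fallen 2C genes (80), 148 to 469 fallen genes outside the programme (455, with 148 without WT library 2, 239 without WT library 3 and 227 without KO library 1), 0 to 5 repeat families (5) and 522 to 630 genes under UNC0638 (567). In all 6 of these fits 34 fallen 2C genes, 122 fallen genes outside the programme and 61 risen genes were called. With an adjusted p under 0.01 the counts were 258 genes, 39 fallen 2C genes, 144 fallen genes outside the programme, 1 repeat family and 175 genes under UNC0638. DESeq2 called 126 fallen 2C genes, 9 repeat families and 868 genes under UNC0638, and edgeR called 2 repeat families. A mean of at least 50 left 43 fallen 2C genes, since it tests fewer low genes, and a 2-fold definition of the programme gave 137, with 398 fallen genes outside it. Otherwise the cause was not tested. The genes called for the difference between treatments stayed at 0 in every alternative.

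The labels number the replicates 1 to 3 in both genotypes, and deviations of same-numbered WT and KO libraries in DMSO were close to uncorrelated (r = 0.07, -0.07 and 0.04). With 3 pairs these values cannot show whether the numbers pair WT with KO libraries, which the labels do not say. With the replicate number as a block the counts were 1021 genes, 101 fallen 2C genes, 606 fallen genes outside the programme, 7 repeat families, 753 genes under UNC0638 and 0 for the difference. The median log2 fold change of all genes lay between -0.06 and 0.02 under all alternatives. At these depths 3 reads correspond to 2.62 to 3.69 normalized counts in a DMSO library, so differences among genes below that level were not detectable.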
